A study of Mus musculus with 12 samples.

Results

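The progesterone receptor gene Pgr, the other steroid receptor genes Esr1, Esr2, Nr3c1 and Nr3c2, and the receptor co-chaperone genes Fkbp5 and Fkbp4 were followed in bone marrow (BM) lymphoid progenitors. These 7 genes, out of 32285 in the table, were taken by their symbols. Pgr was picked because its level changed with age in these same libraries, so its age differences are given as descriptions with no test. Expression was measured by bulk RNA-seq in 2 sorted populations of wild-type C57BL6/J mice, common lymphoid progenitors without surface Ly6d (Ly6d- CLPs) and multipotent progenitors with surface Flk2 (Flk2+ MPPs), at 1 month (1MO) and 3 months (3MO), with 3 libraries in each of the 4 groups: 1MO CLP, 3MO CLP, 1MO MPP and 3MO MPP. No transgene, deletion or treatment is named in the labels. Both populations were sorted by flow cytometry from lineage-depleted marrow of the long bones, and the study describes sorting per mouse and 3 independent experiments.

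Steroid hormones cross the cell membrane and bind receptors that are transcription factors. The unliganded receptors of this family are held by a complex around the chaperone HSP90, in which Fkbp5 and Fkbp4 encode immunophilin co-chaperones. Once bound by hormone, the receptor enters or is retained in the nucleus and acts at DNA elements. Pgr is a classical estrogen-induced gene in the uterus and mammary gland. In the marrow, estrogens restrain lymphoid progenitors and glucocorticoids kill many immature lymphoid cells.

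Levels are given as CPM, the count of a gene relative to the library's depth, on library sizes scaled by the trimmed mean of M values (TMM). The deposited gene counts summed to between 8889083 and 20677785 per library, with a median of 13208993, and 12379 to 15512 genes had a count. Of the 7 genes, 6 passed the filter on low counts and were tested with 13367 genes in all, and Esr2 did not pass. Il7r, the interleukin 7 receptor gene that defines CLPs, lay at 298.8 to 401.8 CPM in CLP libraries and at 5.24 to 18.5 CPM in MPP libraries, as the labels say. Ly6d was at most 7.26 CPM in any CLP library. Every library held Xist at 1476.2 to 3999.7 CPM together with 4 Y-linked genes that summed to 128.8 to 347.7 CPM, so transcripts typical of female and of male cells were present in each. That is at odds with 1 mouse per library, and what separates the 3 libraries of a group is therefore not settled by the sources used here. Between ages, exact permutation tests (two-sided) gave p = 0.5 in CLPs and 1.0 in MPPs for Xist, and 0.6 and 0.8 for the Y-linked sum. With 3 against 3 libraries such a test cannot go below 0.1, so it does not show that the ages were alike.

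Pgr lies on chromosome 9 at chr9:8899833-8968611 on the plus strand (GRCm38, ENSMUSG00000031870), and no other annotated gene overlaps it. The 250 bases before its RefSeq start site, chr9:8899583-8899832, are shown because Pgr is the gene whose level moved. The same stretch of Fkbp5, chr17:28486150-28486399 on the minus strand, is shown as that of a gene widely used as a readout of steroid receptor activity. It lies at a RefSeq start inside the longer GENCODE gene, chr17:28399094-28517527, and not at the outer end of that gene. Both stretches come from RefSeq on GRCm38.p6 and read 5′ to 3′. Capitals mark the letters of a CCAAT box (CCAAT), a GC box (GGGCGG) or a TATA box (TATAAA) on either strand.
Pgr: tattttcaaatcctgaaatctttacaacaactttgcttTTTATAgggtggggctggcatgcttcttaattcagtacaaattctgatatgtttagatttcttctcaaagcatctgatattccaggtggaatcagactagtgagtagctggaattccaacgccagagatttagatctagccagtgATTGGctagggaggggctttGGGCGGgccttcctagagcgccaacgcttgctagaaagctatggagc
Fkbp5: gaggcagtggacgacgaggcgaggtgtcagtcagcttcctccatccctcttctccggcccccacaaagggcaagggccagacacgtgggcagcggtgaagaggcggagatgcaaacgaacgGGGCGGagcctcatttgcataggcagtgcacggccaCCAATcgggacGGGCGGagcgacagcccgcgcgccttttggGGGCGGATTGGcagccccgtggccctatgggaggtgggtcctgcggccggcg

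Promoter windows, each of 250 bases before and 50 after a start site, were matched for 6 of the 7 genes. Nr3c1 had no window, and there were 7 windows in all since Esr1 has more than 1 start. In the Pgr window the CCAAT letters lay at -67 to -63, the GC box at -47 to -42 and the TATA letters at -212 to -207, counted from the start site. Among 32851 promoter windows of the same length, 37.4% held CCAAT, 35.7% held GGGCGG and 13.6% held TATAAA. The element bound by the progesterone, glucocorticoid and mineralocorticoid receptors was searched as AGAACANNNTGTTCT and as its half-site TGTTCT, which the full element contains. Neither was in any of the 7 windows, against 0.00913% and 19.0% of all windows. The estrogen response element GGTCANNNTGACC was in none of the 7 windows, against 0.0700% of all windows. Its half-site TGACC, also contained in the full element and held by 40.5% of all windows, occurred in windows of Nr3c2 (2 matches), Esr2 (2) and Esr1 (1) but in that of neither Pgr nor Fkbp5. A letter match is a description of sequence, and these windows leave out distal elements.

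Pgr was near the bottom of the range of tested genes at 1MO and near the middle at 3MO in both progenitors. In 1MO CLPs it was at 2.52, 4.35 and 5.65 CPM (28, 88 and 89 counts), and in 3MO CLPs at 59.5, 100.3 and 130.6 CPM (590, 1814 and 1651 counts). In 1MO MPPs it was at 0.161, 3.40 and 2.05 CPM (2, 31 and 34 counts), and in 3MO MPPs at 43.9, 92.6 and 78.5 CPM (415, 1287 and 1107 counts). The ages did not overlap in either cell type: the lowest 3MO library was 10.5 times the highest 1MO library in CLPs and 12.9 times in MPPs.

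The mean in CLPs went from 4.17 ± 1.57 to 96.8 ± 35.6 CPM (SD, n = 3), a fitted log2 fold change of 4.52 (SE 0.57). In MPPs it went from 1.87 ± 1.63 to 71.6 ± 25.1 CPM (SD, n = 3), a fitted log2 fold change of 5.30 (SE 0.61). The difference between the changes, CLP minus MPP, was -0.78 on the log2 scale (SE 0.76), and is also a description, between -1.41 and -0.23 without any 1 library. In the contrasts it was chosen on, 10 genes were called in CLPs (0.0748% of genes tested) and 3 in MPPs (0.0224%) at an adjusted p under 0.05, of which 4 (0.0299%) and 1 (0.00748%) were higher at 3MO. These shares are given as background alone, since the choice of Pgr fixes its place among them.

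The library numbered 1 had the lowest Pgr level in each of the 4 groups. Setting same-numbered libraries side by side, the 3MO level over the 1MO level was 23.6, 23.1 and 23.1 in CLPs and 273.0, 27.2 and 38.3 in MPPs. The largest of these ratios rests on the 2 counts of the first 1MO MPP library. Without any 1 of the 12 libraries, the fitted log2 change stayed between 4.24 and 4.79 in CLPs and between 4.75 and 5.93 in MPPs. In bulk RNA, more cells that express Pgr and more Pgr RNA per cell cannot be told apart.

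**Figure D1:**
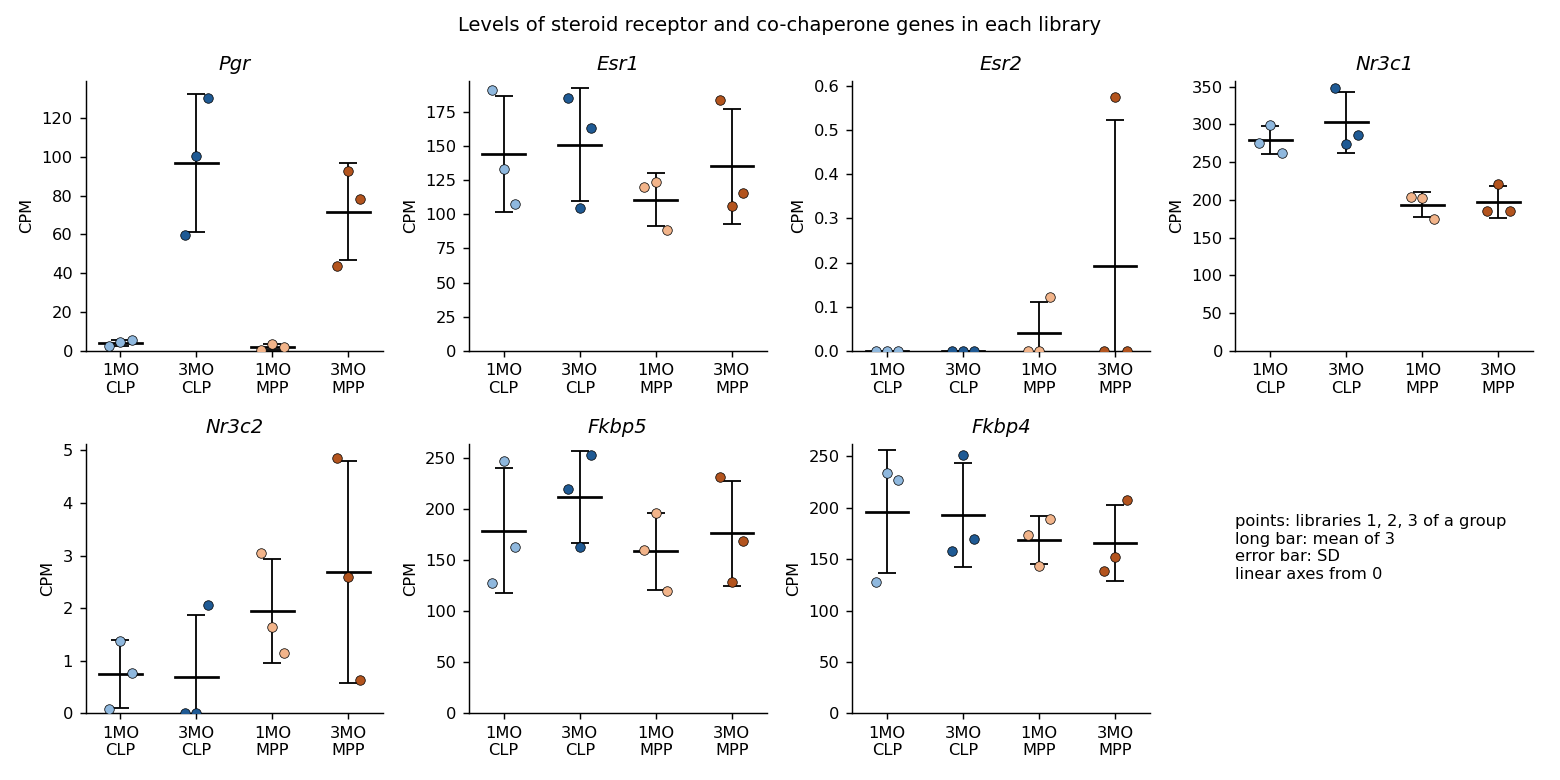
CPM of each of the 7 genes (vertical axes, linear and starting at 0) in 1MO CLP, 3MO CLP, 1MO MPP and 3MO MPP (horizontal axes), with each library as a point, the mean of 3 as a long bar and the SD as an error bar. Pgr sits at 0.161 to 5.65 CPM in the 6 libraries at 1MO and at 43.9 to 130.6 CPM in the 6 at 3MO, and Nr3c1 is higher in every CLP library than in any MPP library.

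Marker genes of other BM cells were summed in the same libraries, since some also moved with age. In CLPs the summed level of 10 bone stroma genes was 309.3 to 701.6 CPM at 1MO and 96.3 to 127.7 CPM at 3MO, and that of 8 B lineage genes was 83.0 to 117.9 and 39.4 to 61.7 CPM. The collagen gene Col1a1 alone went from between 133.5 and 400.0 CPM to between 0 and 1.92 CPM. Most of the 3MO stroma sum was Pdgfrb, at 89.3 to 113.0 CPM in 1MO and 84.7 to 120.6 CPM in 3MO CLPs. In 3MO MPPs Pdgfrb was at 51.7 to 100.4 CPM. The stroma and B lineage sums in CLPs were lower where Pgr was higher. The sum of 5 plasmacytoid dendritic genes was 1697.0 to 1759.2 CPM in 1MO CLPs and 1502.0 to 1544.9 CPM in 3MO CLPs. In MPPs the sums at 1MO and 3MO overlapped for stroma (69.8 to 174.8 and 62.2 to 115.1 CPM), B lineage (13.2 to 20.6 and 8.99 to 20.8 CPM) and plasmacytoid dendritic genes (509.3 to 594.0 and 462.7 to 713.9 CPM). The sum of 10 neutrophil and monocyte genes overlapped between ages in CLPs (1114.4 to 1467.5 and 993.3 to 1361.8 CPM) and in MPPs (781.1 to 943.7 and 712.6 to 1149.0 CPM), and is mostly the Mpo level. Within it the granule gene Ngp was higher at 3MO in every library, as Pgr was, at 5.22 to 10.2 and 10.3 to 40.5 CPM in CLPs and at 5.48 to 11.7 and 22.6 to 56.8 CPM in MPPs. S100a8 separated the ages in MPPs (4.16 to 6.59 and 7.51 to 30.3 CPM) and overlapped in CLPs. The sums that separated the ages in MPPs were those of 7 genes listed for CLPs (2378.7 to 2514.4 at 1MO and 2687.0 to 2983.0 CPM at 3MO) and 7 listed for MPPs (3122.8 to 3239.8 and 3401.7 to 3563.2 CPM), which share Flt3, Kit and Cd27. Of the CLP genes outside that overlap, Il7r (5.24 to 18.5 and 7.72 to 12.8 CPM) and Dntt (389.0 to 460.4 and 376.1 to 667.1 CPM) overlapped between ages in MPPs and Rag1 was lower at 3MO (10.8 to 13.4 and 4.97 to 9.50 CPM). No listed marker was at 0 in all libraries, and the part of these cells in the result was not tested.

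Between cell types of the same age, which did not choose Pgr, its difference did not pass the test. At 1MO the log2 difference of CLPs over MPPs was 1.21 (SE 0.58, 95% interval -0.03 to 2.46, adjusted p = 0.33, edgeR quasi-likelihood test over all genes), and without any 1 library it lay between 0.66 and 1.84. At 3MO it was 0.43 (SE 0.48, 95% interval -0.60 to 1.47, adjusted p = 0.72, same test). The libraries of the cell types overlapped at both ages. In order of mean level, 3MO CLP and 3MO MPP were followed by 1MO CLP and 1MO MPP, and only the step between 3MO MPP and 1MO CLP separated all libraries.

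Esr1 encodes estrogen receptor alpha, which induces Pgr in reproductive tissue. It lies at chr10:4611593-5005614 on the plus strand. It was at 191.0, 133.6 and 107.7 CPM in 1MO CLPs, 185.0, 104.7 and 163.4 CPM in 3MO CLPs, 120.2, 123.7 and 88.5 CPM in 1MO MPPs, and 183.7, 106.4 and 115.9 CPM in 3MO MPPs. All 4 groups overlapped. The log2 change with age was 0.07 in CLPs (95% interval -0.50 to 0.63, adjusted p = 0.99) and 0.29 in MPPs (95% interval -0.28 to 0.85, adjusted p = 1), and neither passed. CLPs over MPPs, the log2 difference was 0.38 at 1MO (95% interval -0.19 to 0.94, adjusted p = 0.61) and 0.16 at 3MO (95% interval -0.41 to 0.72, adjusted p = 0.83).

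Per kilobase of exon, which allows genes to be set side by side, the level of Pgr was 0.0523 ± 0.0314 of that of Esr1 in 1MO CLPs and 1.11 ± 0.530 in 3MO CLPs (SD, n = 3). In MPPs the same ratio was 0.0277 ± 0.0224 in the 1MO and 0.952 ± 0.517 in the 3MO libraries (SD, n = 3). On this scale 12.7% of tested genes had a lower mean than Pgr in 1MO CLPs and 66.5% in 3MO CLPs, and the shares in MPPs were 5.25% and 56.7%. For Esr1 they were 64.3%, 65.8%, 56.0% and 62.0% in 1MO CLP, 3MO CLP, 1MO MPP and 3MO MPP. At 3MO the ratios in libraries 1, 2 and 3 were 0.514, 1.53 and 1.28 in CLPs and 0.382, 1.39 and 1.08 in MPPs. They thus lay on both sides of equality, while at 1MO Pgr was far below Esr1 in every library.

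Esr2, which encodes estrogen receptor beta (chr12:76120419-76177259, minus strand), was all but absent from the counts. It had 0 counts in 10 of the 12 libraries, 2 counts (0.121 CPM) in 1MO MPP library 3 and 8 counts (0.576 CPM) in 3MO MPP library 2. It was below the filter and no comparison was made.

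Nr3c1 encodes the glucocorticoid receptor (chr18:39410545-39519421, minus strand), and was above the 4 other receptor genes in every library, in CPM and in CPM per kb. In CLPs it was at 276.0, 298.8 and 262.0 CPM at 1MO and at 348.8, 273.8 and 286.1 CPM at 3MO. In MPPs it was at 203.3, 202.9 and 174.7 CPM at 1MO and at 185.3, 221.2 and 184.6 CPM at 3MO. Every CLP library was above every MPP library of either age.

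At 3MO, CLPs exceeded MPPs in Nr3c1 by 0.62 on the log2 scale (SE 0.15, 302.9 ± 40.2 against 197.1 ± 20.9 CPM, SD, n = 3 each), which passed the test (adjusted p = 0.023, edgeR quasi-likelihood). At 1MO the difference was 0.53 (SE 0.15, 278.9 ± 18.6 against 193.6 ± 16.4 CPM, SD, n = 3 each) and did not pass (adjusted p = 0.057, edgeR quasi-likelihood). It did pass with the replicate number as a block (0.029), with a minimum of 10 counts per library (0.045) and with DESeq2 (0.0075 over all genes and 0.0081 over those that passed the filter), in a range of 0.0075 to 0.06 over the alternatives. The age-by-cell-type term, which compares these differences, was 0.09 (95% interval -0.36 to 0.55, adjusted p = 1). Nr3c1 was thus the only gene of the 6 tested that passed at 3MO, where 6.07% of all genes tested were called in either direction and 2.73% higher in CLPs, and 0 of the 6 passed at 1MO, where 5.38% were called in either direction. It was also the only gene of the 6 whose CLP libraries lay wholly above or below the MPP libraries of the same age, and it lay above at both ages, as did 11.1% of genes tested at 1MO and 10.1% at 3MO.

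The call at 3MO rests on single libraries. It was lost without 3MO CLP library 1 (adjusted p = 0.11), 3MO MPP library 1 (0.066) or 3MO MPP library 3 (0.08), and with a fit of the 6 libraries at 3MO alone (0.088). Over the processing alternatives the adjusted p ranged from 0.0011 to 0.088, and the log2 difference stayed between 0.52 and 0.71 in all of them and without any 1 library. With age, Nr3c1 differed by 0.12 in CLPs (95% interval -0.20 to 0.44, adjusted p = 0.96) and by 0.03 in MPPs (95% interval -0.30 to 0.35, adjusted p = 1) on the log2 scale. Besides the sums of the listed CLP genes (4505.5 to 4741.6 against 2687.0 to 2983.0 CPM) and MPP genes (2383.3 to 2537.0 against 3401.7 to 3563.2 CPM), those that separated 3MO CLPs from 3MO MPPs were of plasmacytoid dendritic genes (1502.0 to 1544.9 against 462.7 to 713.9 CPM), 7 endothelial genes (282.4 to 342.4 against 162.2 to 194.8 CPM), B lineage genes (39.4 to 61.7 against 8.99 to 20.8 CPM) and, in the other direction, 5 mast cell and basophil genes (42.5 to 60.1 against 93.9 to 165.8 CPM). The endothelial sum is mostly Pecam1 (267.6 to 298.8 against 121.1 to 164.7 CPM). Within it Tek (0.474 to 0.996 against 3.81 to 8.65 CPM) and Emcn (3.16 to 6.46 against 10.3 to 23.7 CPM) were lower in CLPs. Stab2 was higher, and the other endothelial genes overlapped. Among mast cell and basophil genes, Gata2 (10.9 to 29.1 against 51.1 to 83.8 CPM) and Ms4a2 were lower in CLPs, and the rest overlapped. The part of these sums in the Nr3c1 difference was not tested.

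Nr3c2, the mineralocorticoid receptor gene (chr8:76899442-77245012, plus strand), was near the floor of the counts. It was at 0.0900, 1.38 and 0.761 CPM in 1MO CLPs, 0, 0 and 2.06 CPM in 3MO CLPs, 3.05, 1.65 and 1.14 CPM in 1MO MPPs, and 4.86, 2.59 and 0.638 CPM in 3MO MPPs. Both MPP means were above both CLP means, but the libraries overlapped at each age. The log2 difference of CLPs over MPPs was -1.35 at 1MO (95% interval -4.57 to 1.86, adjusted p = 0.81) and -1.96 at 3MO (95% interval -5.24 to 1.33, adjusted p = 0.57). The log2 change with age was -0.14 in CLPs (95% interval -3.34 to 3.06) and 0.46 in MPPs (95% interval -2.69 to 3.61), so a change of several fold was not detectable at this depth.

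Fkbp5 encodes an HSP90 co-chaperone that lowers the hormone affinity of the glucocorticoid and progesterone receptors and is itself induced by them. It lies at chr17:28399094-28517527 on the minus strand. Its levels were 127.1, 246.7 and 162.3 CPM in 1MO CLPs, 218.9, 162.8 and 252.4 CPM in 3MO CLPs, 159.8, 195.6 and 119.9 CPM in 1MO MPPs, and 230.7, 128.4 and 168.7 CPM in 3MO MPPs. The groups overlapped throughout. The log2 change with age was 0.24 in CLPs (95% interval -0.33 to 0.81, adjusted p = 0.96) and 0.15 in MPPs (95% interval -0.42 to 0.72, adjusted p = 1), and the interval in CLPs does not reach a doubling.

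Fkbp4, whose product favours receptor activity and is needed for progesterone responses of the mouse uterus, lies at chr6:128429735-128438677 on the minus strand. It was at 127.8, 234.3 and 227.2 CPM in 1MO CLPs, 158.5, 251.6 and 169.7 CPM in 3MO CLPs, 173.5, 143.7 and 189.2 CPM in 1MO MPPs, and 138.3, 151.7 and 207.7 CPM in 3MO MPPs. The log2 change with age was -0.02 in both cell types, with a 95% interval of -0.54 to 0.49 in each. CLPs over MPPs, Fkbp5 differed by 0.18 at 1MO and 0.27 at 3MO and Fkbp4 by 0.22 at both ages on the log2 scale, with adjusted p of 0.88, 0.69, 0.81 and 0.72 in that order.

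**Figure D2:**
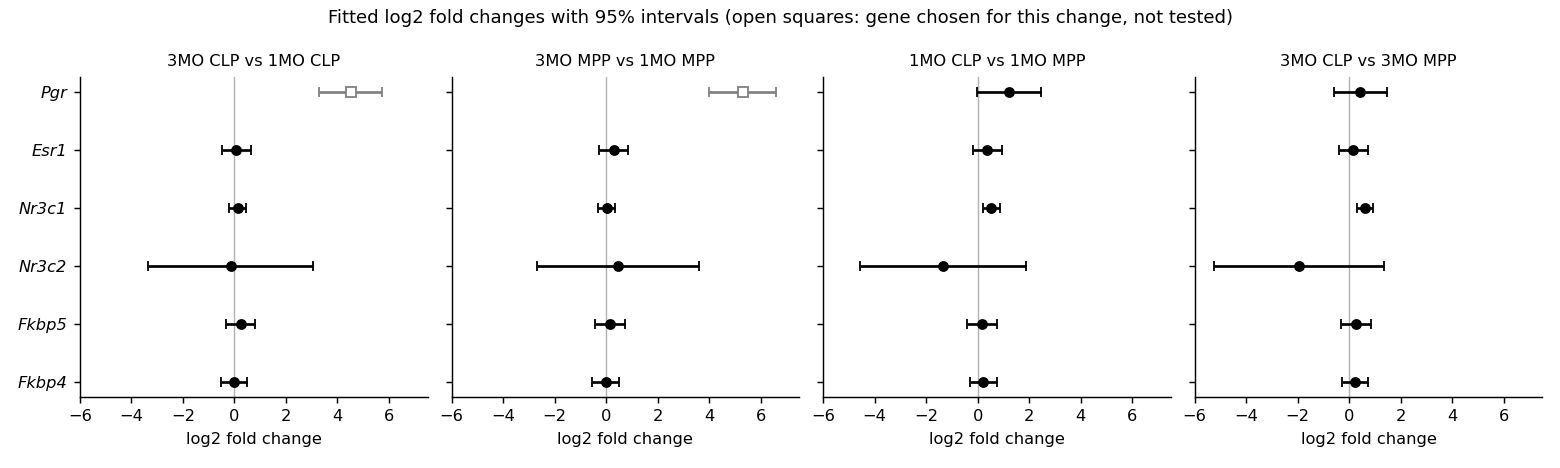
Fitted log2 fold changes (horizontal axes) of the 6 tested genes (vertical axis) with 95% intervals as bars, for 3MO over 1MO in CLPs and in MPPs and for CLPs over MPPs at 1MO and at 3MO. Open squares mark the age changes of Pgr, 4.52 and 5.30, which are descriptions, and the other 5 genes lie within -0.14 and 0.46 in the age panels.

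Per kilobase of exon, the 7 genes ranked in much the same order in the libraries apart from Pgr. Fkbp4 spanned 45.7 to 90.0 CPM per kb, Nr3c1 22.7 to 45.4, Fkbp5 12.7 to 26.7 and Esr1 6.48 to 14.0. Pgr spanned 0.0188 to 15.3 CPM per kb over the 12 libraries, the widest relative range of the 5 tested genes with a count in every library. Nr3c2 reached 0.751 and Esr2 0.171 CPM per kb at most.

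The genes whose log2 CPM followed Pgr most closely over the 12 libraries were found by Pearson's r, as a description. The libraries share the 4 groups, so r here mostly follows age. Qprt (r = 0.92), a quinolinate-metabolising enzyme gene, Ap3s1 (0.90), Clnk (0.84), Trf (0.81), which encodes transferrin, and 1700029I15Rik (0.81) were the nearest of 13366 genes. Their mean levels moved far less than that of Pgr: Clnk, an adaptor of immunoreceptor signalling, was at 15.1 and 36.2 CPM in 1MO and 3MO CLPs and at 13.7 and 28.4 CPM in 1MO and 3MO MPPs. Among the 7 genes, r with Pgr was 0.31 for Fkbp5, 0.24 for Nr3c1, 0.18 for Esr1, 0.08 for Fkbp4 and -0.20 for Nr3c2. By Spearman's rho that of Esr1 was -0.06, the opposite sign, and that of Fkbp5 was 0.47.

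The genes most opposite to Pgr were Hmga2 (r = -0.92), Lin28b (-0.89) and Atp8a2 (-0.88). By Spearman's rho Hmga2 stood at rank 10, Lin28b at 2 and Atp8a2 at 11, and Trf at rank 14 among the genes most like Pgr. Hmga2, a chromatin protein gene of fetal and young progenitors, spanned 108.4 to 196.2 CPM in the 6 libraries at 1MO and 33.2 to 58.0 CPM in the 6 at 3MO. Lin28b, an RNA-binding regulator of fetal haematopoiesis, had 47 counts over the 1MO CLP and 48 over the 1MO MPP libraries and 0 counts in all 6 libraries at 3MO.

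The neighbours of Pgr on chromosome 9 were taken as the 3 nearest protein-coding genes on each side. The nearest before it, Trpc6 (chr9:8544142-8680741, plus strand), encodes a calcium-permeable channel and ends 219.1 kb upstream. Trpc6 was at 0, 0.840 and 1.40 CPM in 1MO CLPs, 2.62, 3.76 and 5.06 CPM in 3MO CLPs, 5.14, 5.05 and 2.95 CPM in 1MO MPPs, and 17.1, 11.6 and 13.3 CPM in 3MO MPPs. The ages did not overlap in either cell type and 3MO was higher in both, which held for 4.51% of tested genes in CLPs and 3.96% in MPPs. The fitted log2 change was 2.30 in CLPs (SE 0.77, adjusted p = 0.68) and 1.68 in MPPs (SE 0.72, adjusted p = 1), and neither passed over all genes.

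Trpc6 had lower levels in every CLP library than in any MPP library of the same age, as did 13.8% of genes tested at 1MO and 11.7% at 3MO, at log2 differences of -2.50 at 1MO (adjusted p = 0.078) and -1.87 at 3MO (adjusted p = 0.16) that did not pass. Arhgap42, 25.7 kb after Pgr on the minus strand, had group means of 2.51, 3.21, 1.62 and 2.68 CPM in 1MO CLP, 3MO CLP, 1MO MPP and 3MO MPP, and its libraries overlapped. Cep126 (765.5 kb before) spanned 2.41 to 6.12 CPM in 1MO and 6.47 to 6.56 CPM in 3MO CLPs, and Cfap300 (857.0 kb before) 0 to 0.395 and 1.19 to 2.43 CPM. Both were thus higher in every 3MO CLP library and overlapped between ages in MPPs, and their log2 changes in CLPs, 0.64 (SE 0.50, adjusted p = 0.92) and 3.48 (SE 1.69, adjusted p = 0.86), did not pass. Cntn5 (692.3 kb after) had 0 counts in every library. Gm16485, 3.18 kb after Pgr, was not analysed here.

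**Figure D3:**
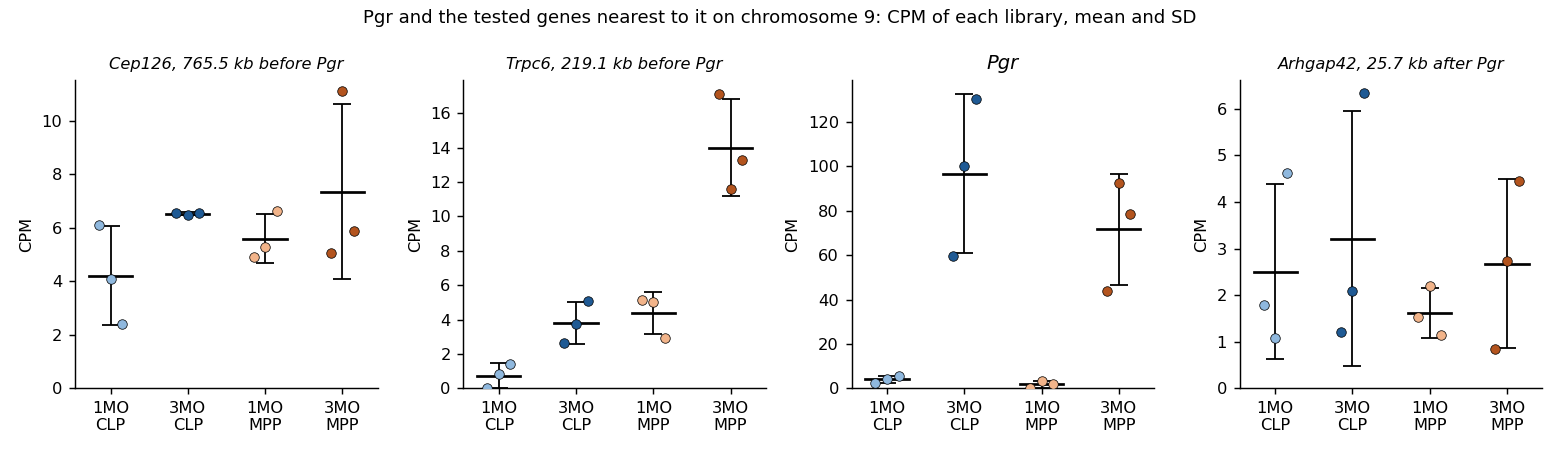
CPM (vertical axes, linear from 0, each with its own scale) of Cep126, Trpc6, Pgr and Arhgap42, in their order along chromosome 9, with libraries as points, the mean of 3 as a bar and the SD as an error bar, in the 4 groups. Trpc6 and Pgr are higher in every 3MO library than in any 1MO library of the same cell type, Cep126 is so in CLPs, and Arhgap42 overlaps between ages.

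The wider steroid pathway was read from lists of other receptors, chaperones, coregulators, hormone-induced genes and enzymes, all in the same fit. With age, 0 genes of these lists passed in CLPs or in MPPs. The tested members numbered 6 of 8 membrane steroid receptor genes, 23 of 41 other nuclear receptors, 24 of 24 HSP90 machinery genes and 29 of 30 coregulators. They also numbered 26 of 29 glucocorticoid-induced genes, 13 of 22 estrogen- and progesterone-induced genes and 18 of 31 genes of steroid synthesis and conversion. Listed symbols that matched none of the 32285 genes were left out of these numbers. The edgeR test called few genes with age at all, and the unadjusted p was under 0.05 for 789 of 13367 genes in CLPs and for 465 in MPPs.

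Hormone-induced genes are a readout of receptor activity in other tissues. The median log2 change of the 13 estrogen- and progesterone-induced genes was -0.14 in CLPs and -0.01 in MPPs, beside -0.01 over all tested genes in each. In each cell type 6 of the 13 had a positive fitted change, as had 48.5% of all tested genes in CLPs and 48.1% in MPPs, and the log2 changes ran from -2.49 to 1.54 in CLPs and from -2.20 to 1.60 in MPPs. Il17rb had log2 changes of 0.68 in CLPs (adjusted p = 0.9) and 0.53 in MPPs (adjusted p = 1), and Myc of 0.04 (adjusted p = 0.99) and -0.25 (adjusted p = 1). Foxo1 was lower at 3MO in CLPs, with a log2 change of -0.72 (adjusted p = 0.6, edgeR), and at -0.01 in MPPs. Of the 26 glucocorticoid-induced genes 13 had a positive fitted change in CLPs (median 0.02) and 17 in MPPs (median 0.32), beside 48.5% and 48.1% of all tested genes, and none of the 26 passed the test in either cell type. Tsc22d3, which encodes the glucocorticoid-induced leucine zipper, and which was named with its value known, had log2 changes of 0.07 in CLPs (adjusted p = 0.99) and 0.44 in MPPs (adjusted p = 1), and the clock gene Per1, named likewise, of 0.74 (adjusted p = 0.84) and 0.71 (adjusted p = 1).

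Between CLPs and MPPs the lists did hold called genes. Over all genes tested, 2.57% were called higher and 2.81% lower in CLPs at 1MO, and 2.73% and 3.34% at 3MO. The membrane-associated progesterone receptor genes Pgrmc1 and Pgrmc2, which are unrelated to Pgr in sequence, had group means of 47.7 to 74.7 and 44.0 to 51.8 CPM and passed in no comparison. The membrane progestin receptor gene Paqr5 had means of 17.2 and 20.5 CPM in 1MO and 3MO CLPs and 16.9 and 33.6 CPM in MPPs. Its ages did not overlap in MPPs, but the log2 change of 0.99 did not pass (adjusted p = 0.81, edgeR). None of the 6 membrane steroid receptor genes passed at either age. Among the 23 other nuclear receptors, 3 were lower in CLPs at 1MO (Hnf4a, Vdr and Nr1d2) and 3 at 3MO (Hnf4a, Rxra and Vdr), with none higher. Hnf4a was at 51.7 ± 7.88 against 107.3 ± 7.23 CPM at 1MO and at 28.2 ± 6.88 against 91.9 ± 15.5 CPM at 3MO (CLPs against MPPs, SD, n = 3 each), with log2 differences of -1.06 and -1.71 (adjusted p = 0.0065 and 0.00019, edgeR). Of these 6 calls, only those of Hnf4a held without each of the 12 libraries in turn. Those of Vdr at 1MO, Vdr at 3MO and Nr1d2 held in 7 of the 12 omissions each (adjusted p up to 0.13, 0.12 and 0.17), and that of Rxra in 8 (up to 0.17).

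Of the glucocorticoid-induced list, 2 of 26 were higher in CLPs at 1MO (Il7r and Cxcr4) and 3 lower (Glul, Txnip and Anxa1), and at 3MO 2 were higher (Il7r and Bcl2l11) and 4 lower (Glul, Txnip, Anxa1 and Dusp1). Il7r also marks CLPs. Glul, which encodes glutamine synthetase, was at 107.8 ± 25.8 against 293.8 ± 23.1 CPM at 1MO and at 92.9 to 151.8 against 360.6 to 374.8 CPM at 3MO (the 1MO values with SD, n = 3), with log2 differences of -1.44 and -1.54 (adjusted p = 0.00035 and 0.00024, edgeR). The list's median log2 difference was -0.30 at 1MO and -0.35 at 3MO, beside -0.02 and -0.03 over all tested genes. The call of Bcl2l11 held in 3 of the 12 omissions (adjusted p up to 0.2), that of Dusp1 in 4 (up to 0.15) and that of Anxa1 at 1MO in 7 (up to 0.13).

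Of the 24 HSP90 machinery genes 0 passed at 1MO and 1 at 3MO (Dnajb6, log2 difference 0.72, adjusted p = 0.02, held in 7 of the 12 omissions of a library). Of the 29 coregulators, Gata2 was lower in CLPs at both ages (log2 difference -2.74 at 1MO, adjusted p = 0.00016, and -1.99 at 3MO, adjusted p = 0.002) and Ncoa7 at 1MO (-0.92, adjusted p = 0.0071, and 0.057 without 1MO MPP library 1). Gata2 is also a mast cell and stem cell gene. Foxo1 at 1MO and Tnfsf11 and Il17rb at 3MO were higher in CLPs among the 13 estrogen- and progesterone-induced genes. The call of Foxo1 held in 8 of the 12 omissions (adjusted p up to 0.17) and that of Il17rb in 7 (up to 0.1). Tnfsf11 had 0, 4 and 5 counts in the 3MO MPP libraries. Of the 18 steroid synthesis genes Hsd3b7 was lower in CLPs at both ages and Por at 1MO, calls that held in 6, 10 and 7 of the 12 omissions (adjusted p up to 0.18, 0.067 and 0.11). With a fit of the 6 libraries at 3MO alone, the 3MO calls of Tnfsf11 (adjusted p = 0.07), Vdr (0.1), Rxra (0.14), Dnajb6 (0.095), Dusp1 (0.097), Bcl2l11 (0.08) and Hsd3b7 (0.055) were lost, and those of Rxra (0.081), Dusp1 (0.071) and Bcl2l11 (0.056) also with counts thinned to the smallest total.

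**Figure D4:**
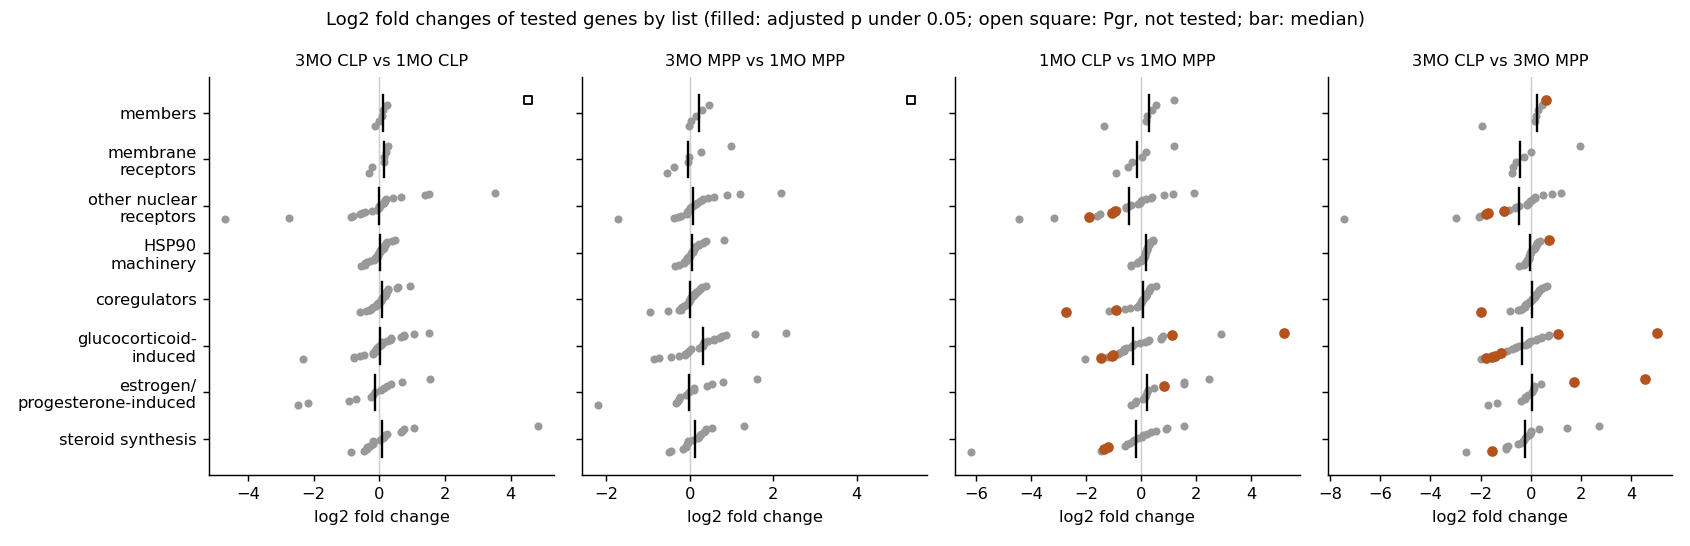
Log2 fold changes (horizontal axes) of every tested gene of 8 lists (vertical axis), for 3MO over 1MO in CLPs and MPPs and for CLPs over MPPs at each age, with each gene as a point, the list's median as a bar, genes at an adjusted p under 0.05 filled and Pgr as an open square in the age panels. No list gene is filled in the age panels, and Nr3c1, at 0.62, is the filled point of the top list at 3MO between the cell types.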

How the data were processed

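The deposited values are estimated counts per gene, scaled by transcript length, which the authors made with an nf-core pipeline: trimming with Trim Galore, alignment with STAR 2.7.10b to mm10 and quantification with Salmon. The methods name both paired-end and single-end reads without saying which library had which. Estimated counts were rounded to whole numbers. Genes passing filterByExpr (13367 of 32285) were fitted in 1 model of 4 groups over the 12 libraries with edgeR 4.0.16 (TMM, quasi-likelihood test, Benjamini-Hochberg over all genes tested, threshold 0.05) in R 4.3.3. Intervals are 95% intervals of the fitted log2 change. The study describes sorting per mouse and 3 independent experiments. The labels give replicate numbers without naming an animal or experiment, so p-values measure the spread between these libraries.

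The genes and lists were chosen with earlier results of these data known. Named genes were the 7 genes, in each list the 2 with the smallest p and the 2 with the highest CPM, the 5 genes most like and the 3 most opposite to Pgr (log2 CPM, prior count 2), the 3 protein-coding neighbours on each side, and all list genes called. Genes outside this rule were named after their values were seen. Some listed genes are not reported here. Coordinates and exon lengths came from GENCODE M21. Alternatives were DESeq2 1.42.0 (on all genes and, added after seeing the data, on those that passed filterByExpr), RLE size factors, no filter, a minimum of 10 counts per library, the replicate number as a block, only the 6 libraries compared, thinning to the smallest total, another prior count and leaving out each library. On simulated counts for 3MO against 1MO CLPs (13030 genes), 58.0% of 200 genes changed 3-fold were recovered with 6 false calls.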

Additional observations from a re-analysis of the deposited data

How the results depend on the processing

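The number of genes called depended on the processing. With age in CLPs it was 10, against 46 with no filter, 4 with at least 10 counts in every library, 4 with only the 6 libraries compared and 65 with DESeq2, which was run without that filter. With age in MPPs it was 3, against 26, 1 and 35 with no filter, at least 10 counts and DESeq2. The age-by-cell-type term called 0 genes with edgeR (429 at an unadjusted p under 0.05), 6 with no filter and 7 with DESeq2. CLPs against MPPs gave 719 at 1MO and 812 at 3MO, against 1237 and 1438 with DESeq2, and with only the 6 libraries compared 900 at 1MO and 435 at 3MO. DESeq2 on the 13367 genes that passed the filter, added after seeing the data, gave 57 and 32 with age, 6 for the term, and 1175 and 1371 for the cell types. Leaving out 1 library gave 6 to 10, 3 to 5, 0 to 1, 460 to 887 and 553 to 881 in that order. The sources do not say whether a replicate number marks one experiment. The r of deviations from the group mean was -0.0339 to 0.213 over 12 same-numbered pairs, 3 of them over 0.1. It was -0.238 to 0.139 over pairs with different numbers, and not every library correlated best with its own number. These ranges do not settle whether the numbers pair the libraries. With the replicate block the counts were 11, 3, 0, 915 and 1007. The cause of these shifts was not tested.

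Pgr kept its direction in every fit that included it, and at least 10 counts in every library removed it. Nr3c1 at 1MO passed with DESeq2 (adjusted p = 0.0075 without the filter and 0.0081 with it), at least 10 counts (0.045), the replicate block (0.029) and without 3MO CLP library 1 (0.047) or 3MO MPP library 1 (0.048), in a range of 0.0075 to 0.06 over alternatives and up to 0.22 without 1 library. Uncalled values near 0 changed sign. Fkbp4 with age in CLPs was 0.00 under the block and thinned, and its age-by-cell-type term was 0.00 with RLE factors and both DESeq2 fits, -0.03 with no filter and -0.01 with at least 10 counts. Without 1 library, the log2 change with age in CLPs was -0.11 to 0.32 for Esr1, 0.00 to 0.19 for Nr3c1, -6.39 to 0.65 for Nr3c2 and -0.26 to 0.12 for Fkbp4. In MPPs it was -0.07 to 0.07 for Nr3c1, -0.27 to 0.94 for Nr3c2, -0.09 to 0.33 for Fkbp5 and -0.22 to 0.09 for Fkbp4. The age-by-cell-type term was -0.40 to 0.06 for Esr1, -0.03 to 0.18 for Nr3c1, -6.85 to 0.18 for Nr3c2, -0.10 to 0.40 for Fkbp5 and -0.24 to 0.20 for Fkbp4. CLPs over MPPs, Fkbp5 was -0.13 to 0.37 at 1MO, and Esr1 0.00 to 0.44 and Fkbp4 -0.02 to 0.42 at 3MO. The correlation of Hmga2 with Pgr was -0.80 by Spearman's rho. Nr3c2 and Esr2 had few counts in most libraries.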
